A study of Rattus norvegicus with 42 samples.

Results

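Whole blood of 6 rats with permanent middle cerebral artery occlusion (permanent-MCAO) was compared with that of 6 rats given anesthesia alone, none of which received tissue plasminogen activator (tPA). The 12 arrays were taken by their titles from the 42 arrays of the series, which holds 7 groups of 6 rats, and every probe set other than the array's own controls was used. All rats were male Sprague-Dawley animals of 280 to 350 g, and blood was drawn 24 h after onset, by cardiac puncture under isoflurane, into tubes that fix RNA in all blood cells. In permanent-MCAO rats a nylon suture was advanced through the carotid artery under isoflurane and left in place for 24 h, so the artery was never reopened. In reperfused-MCAO rats, used here for comparison, the suture was withdrawn at 2 h. Further rats used here were naive animals, animals with permanent-MCAO given tPA (3.3 mg/kg at 3 h), and animals given tPA without MCAO. No group is described as having the neck surgery without occlusion, so effects of the operation and of the occlusion cannot be told apart. The sources used here do not say how long the anesthesia rats were anesthetized.

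Blood after a stroke carries RNA of circulating leukocytes, platelets and red cell precursors rather than of the brain. Neutrophils and monocytes are the first leukocytes to respond to injured tissue, through interleukin 1, Toll-like receptors and adhesion molecules, and stress hormones released after brain injury change both their number and their genes. Leukocytes also make their own cholesterol and store lipid in droplets, and these pathways are set by sterol-sensing and fatty acid-sensing transcription factors.

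Values are log2 expression of 31042 probe sets on the Rat Genome 230 2.0 array, and differences are permanent-MCAO minus anesthesia. A probe set is called where limma gave an unadjusted p at most 0.01 and a fold of at least 1.2, the thresholds that the study's methods give for 2 groups. An adjusted p is the Benjamini-Hochberg value over all probe sets. Between 2 groups of 6 rats, exact permutation over all divisions of the 12 rats cannot give a two-sided p below 0.00216. Array medians ran from 3.07 to 3.14 in permanent-MCAO rats and from 3.05 to 3.09 in anesthesia rats. The mean of 14 hybridization control probe sets was 12.2 ± 0.20 in permanent-MCAO and 12.2 ± 0.22 in anesthesia (SD, n = 6 each), against 11.2 ± 0.75 in rats given tPA without MCAO, 1 of which lay at 9.72. Defining blood cell genes were bright in both groups, with beta globin Hbb at 14.81 and 14.80 and the T cell receptor chain Cd3e at 10.90 and 10.99, as means in permanent-MCAO and anesthesia. Of 25 neural genes measured 3 reached a mean of log2 4, the level below which probe sets are called dim here, and none was called.

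After permanent-MCAO named innate immune, lipid storage and stress genes were higher in blood and enzymes of cholesterol synthesis were lower. In all 862 of 31042 probe sets were called (2.78%), 550 higher (1.77%) and 312 lower (1.01%). A p of 0.01 alone would pass about 310 of 31042 probe sets without any difference. Counted by gene, with 1 probe set each, 517 of 14217 were called (3.64%): 332 genes were higher (2.34%) and 185 lower (1.30%). After adjustment 45 probe sets passed 0.05 (0.145%; 36 higher, 9 lower), the smallest adjusted p being 0.0398. That count was not stable. With 1 rat left out it was 0 to 3, except for 17 without permanent-MCAO rat 3 and 119 without anesthesia rat 2. It was 2 with naive rats as the control, while 2362 probe sets had an unadjusted limma p under 0.05. The values of the 6 rats in each group did not overlap for 251 probe sets (0.809%), 230 of which were called. With naive rats in place of anesthesia rats 1100 probe sets were called (3.54%), 400 higher (1.29%) and 700 lower (2.26%), so that 36.4% of the calls were higher, against 63.8% higher with anesthesia rats, and the balance of the 2 directions depended on the control group.

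**Figure D1:**
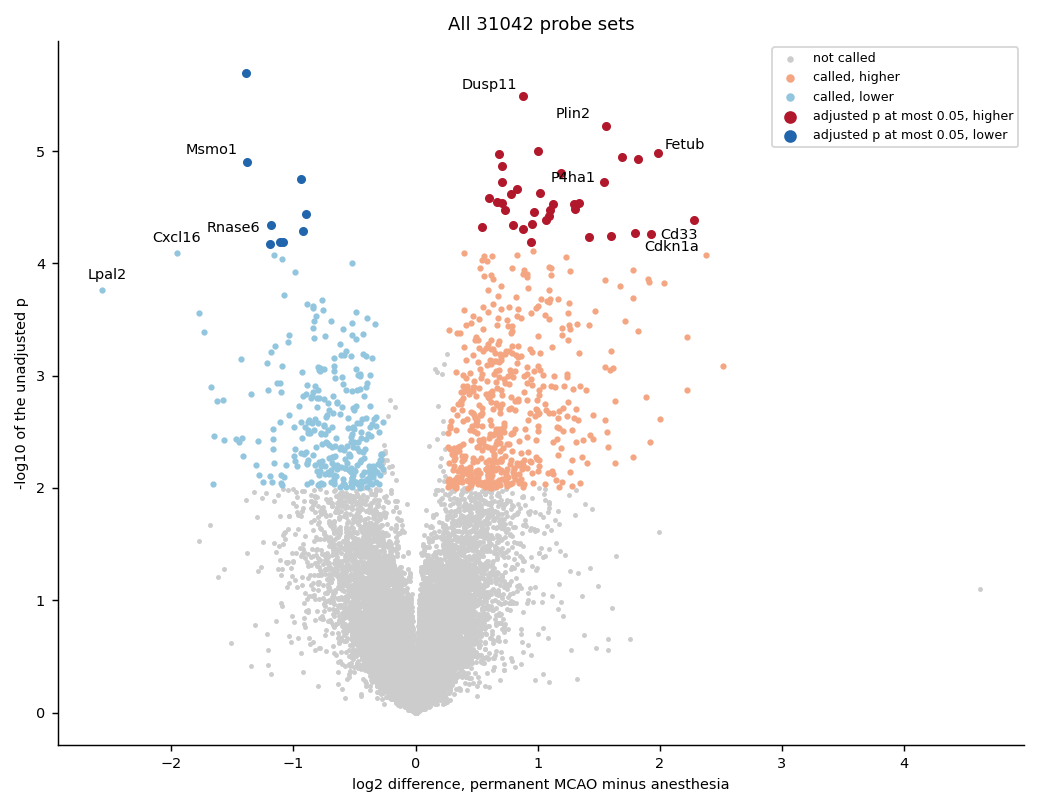
Log2 difference of permanent-MCAO minus anesthesia (x axis) against the negative log10 of the unadjusted limma p (y axis) for each of 31042 probe sets, 6 rats per group. The 45 probe sets past an adjusted p of 0.05 are drawn larger, 36 to the right and 9 to the left, and the far grey point on the right, at 4.63, is Ctrb1, which was not called.

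Among the 45 probe sets past adjustment, 30 carry 1 gene symbol. Fetub, which encodes a secreted protease inhibitor of the cystatin family, had its lowest, median and highest values at 7.41, 7.93 and 8.38 in permanent-MCAO rats, against 5.43, 5.77 and 6.74 in anesthesia rats. Its values did not overlap and differed by 1.98 ± 0.26 (SE, adjusted p = 0.0398), a 3.95-fold rise. Cd33, a sialic acid receptor of myeloid cells, lay at 8.62, 8.85 and 9.51 in permanent-MCAO and at 6.02, 7.01 and 8.22 in anesthesia (lowest, median and highest), a rise of 1.93 ± 0.30 (adjusted p = 0.0434). Vcan, a matrix proteoglycan made by monocytes, was measured by 5 probe sets, and all 5 were called higher, by 1.62 to 2.38. The 1 that passed adjustment read 4.43, 5.05 and 5.48 in permanent-MCAO, against 2.70, 3.12 and 3.80 in anesthesia. Cdkn1a, the cell cycle inhibitor p21, rose by 1.80 ± 0.28 (adjusted p = 0.0434), with 5.20, 6.05 and 6.67 in permanent-MCAO and 3.87, 4.12 and 4.97 in anesthesia. Of its 2 probe sets 1 was called, and the other was not positive. The values given for these genes did not overlap between the groups.

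Other named probe sets past adjustment, picked out after their values were seen, were smaller in size. Both probe sets of Serpinb1a, an inhibitor of neutrophil granule proteases, rose, by 1.31 and 1.30. Sema6b (1.60), Marcks (1.42), a membrane-bound substrate of protein kinase C, and Ggt5 (1.34), which cleaves glutathione conjugates such as leukotriene C4, also rose. So did Sort1 (0.97), a sorting receptor of the Golgi, Chi3l1 (0.95), a secreted chitinase-like protein, Ets2 (0.73), a transcription factor, and Rhob (0.67), a small GTPase. Rnase6, an antimicrobial ribonuclease, fell by 1.18, Cog7, a subunit of a Golgi tethering complex, fell by 1.19, and Atad5, which unloads the replication clamp, fell by 0.92. Of 2 probe sets of Cog7 and 3 of Atad5, 1 each was called and 1 each, not called, was positive.

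Part of the cholesterol synthesis pathway fell in permanent-MCAO rats. The pathway list was written after the values were seen, from textbook enzymes, so its count against anesthesia describes these rats and is no test. Of 19 enzymes measured 5 were called lower and 0 higher, beside 1.30% of all genes called lower, and 18 of 19 differences were negative with a median of -0.32, beside 47.7% negative and a median of 0.0029 over all genes. The 5 called enzymes lie in the middle of the pathway, with uncalled ones such as Fdps and Lss among them. Idi1 interconverts the isoprenoid building blocks, Fdft1 joins farnesyl units to squalene, Sqle makes squalene epoxide, and Cyp51 and Msmo1 demethylate lanosterol and its products.

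Msmo1 read 5.36, 5.52 and 6.30 in permanent-MCAO rats (lowest, median and highest), against 6.57, 6.94 and 7.49 in anesthesia rats. The values did not overlap, and it fell by 1.38 ± 0.18 on the log2 scale (adjusted p = 0.0398), although permanent-MCAO rat 3 lay well above the other 5. Cyp51 read 5.19, 6.45 and 6.94 in permanent-MCAO and 7.15, 7.54 and 7.90 in anesthesia, again without overlap, and fell by 1.22 ± 0.26 (adjusted p = 0.114). Fdft1, with 4.95, 5.25 and 5.61 in permanent-MCAO and 5.74, 6.25 and 6.66 in anesthesia, fell by 0.99 ± 0.17 (adjusted p = 0.0558). For Sqle and Idi1 the groups overlapped at the edge. Sqle read 3.35, 3.93 and 4.61 in permanent-MCAO and 4.54, 5.25 and 5.67 in anesthesia, and fell by 1.11 ± 0.26. Idi1 read 3.18, 4.16 and 4.83 in permanent-MCAO and 4.51, 4.97 and 5.28 in anesthesia, and fell by 0.87 ± 0.23. The second probe sets of Idi1, Cyp51 and Fdft1 were also called lower, by 1.16, 1.09 and 1.10 on the log2 scale. Only Msmo1 of the 5 passed adjustment over all probe sets. Of the 14 enzymes not called, Fdps differed by -0.22, Mvd by -0.32, Lss by -0.38, Dhcr7 by -0.39 and Acat2, at the entry to the pathway, by 0.02.

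The same enzymes were then read against other rats. With naive rats as the control of the same permanent-MCAO rats, 7 of the 19 enzymes were lower, beside 3.20% of all genes, and 0 higher, with a median of -0.45. Msmo1 fell by 1.55 there and passed adjustment (adjusted p = 0.0149). Naive rats read 6.96, 7.10 and 7.50 for Msmo1 and 7.20, 7.45 and 7.66 for Cyp51, close to the anesthesia rats. Among the tPA-treated rats, none of which enter the comparison above, 9 of 19 were lower in permanent-MCAO with tPA than in tPA without MCAO, beside 6.06% of all genes, and all 5 enzymes were among them. The falls under tPA were 0.93 for Msmo1, 1.22 for Fdft1, 0.97 for Sqle, 0.72 for Cyp51 and 0.71 for Idi1, none of which passed adjustment (adjusted p = 0.0844 to 0.132). The tPA rats without MCAO have the low hybridization control level given above, and its part in these falls was not tested. With naive rats as the control of permanent-MCAO with tPA, 7 of 19 were lower, beside 1.13% of all genes. The mean over the 19 genes was 5.43 ± 0.10 in permanent-MCAO, 5.51 ± 0.10 in reperfused-MCAO and 5.89 ± 0.10 in anesthesia (SD, n = 6 each). Over all 24 rats with MCAO, with or without tPA, that mean lay between 5.24 and 5.80, and over the 18 rats without MCAO between 5.76 and 6.30.

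**Figure D2:**
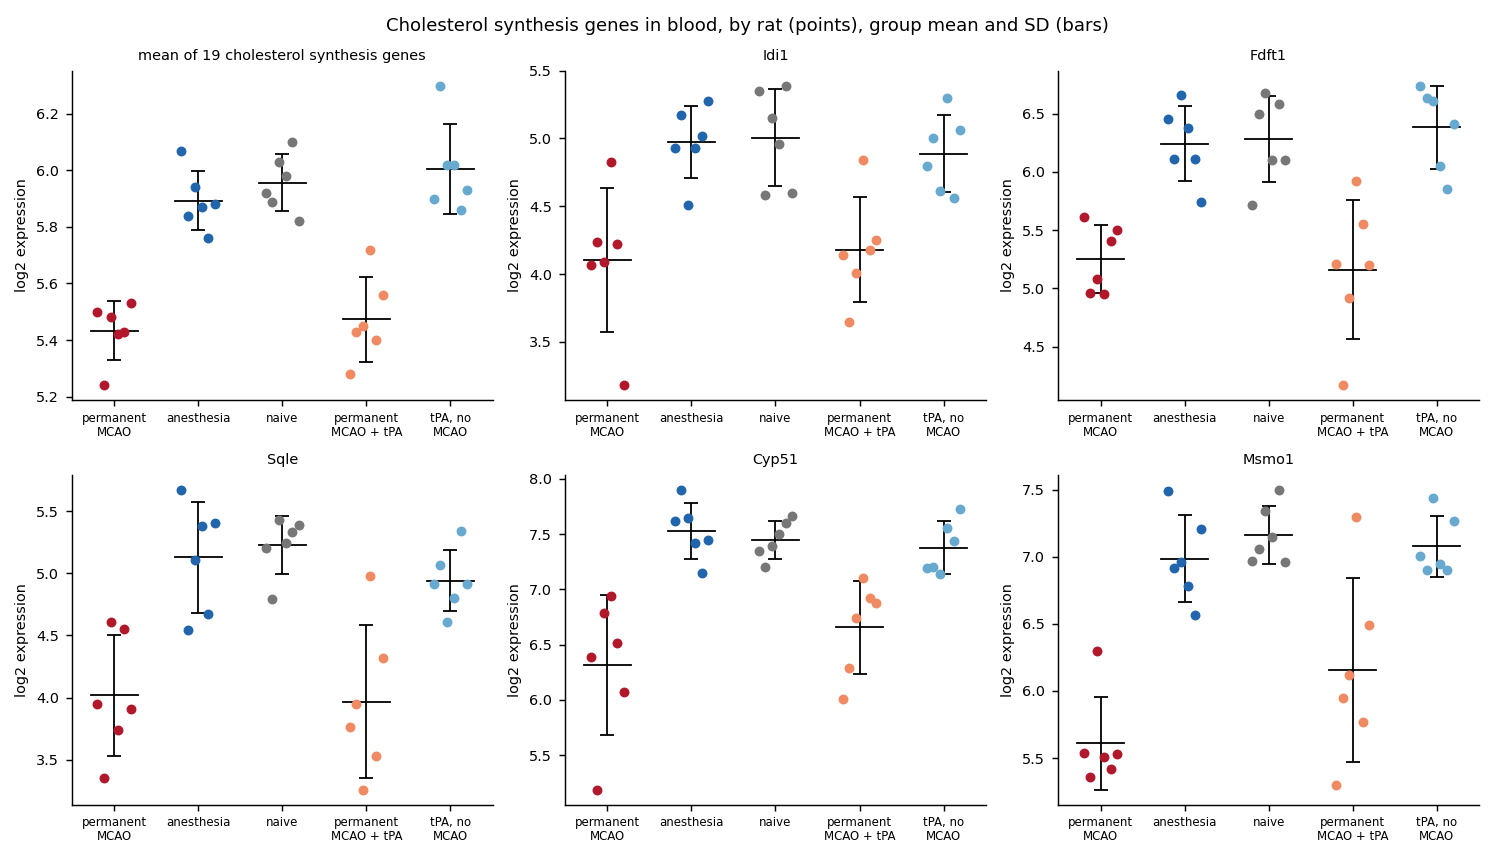
Log2 expression (y axis) of the mean of 19 cholesterol synthesis genes and of the 5 called enzymes, 1 point per rat, in permanent-MCAO, anesthesia, naive, permanent-MCAO with tPA and tPA without MCAO (6 rats each), with group means and SD as bars. In the first panel the permanent-MCAO rats lie between 5.24 and 5.53 and the anesthesia rats between 5.76 and 6.07.

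The promoters of the enzymes that fell together are shown because genes of this pathway are known to be driven by sterol regulatory element binding proteins with the help of NF-Y, which binds CCAAT boxes, and Sp1, which binds GC boxes. The 200 bases before the start are from RefSeq on the GRCr8 build, on the strand of the gene, and capitals mark CCAAT or GGGCGG on either strand (ATTGG and CCGCCC on the opposite one). Of the 5 enzymes, Fdft1 and Sqle are not in the promoter table.
Msmo1, chr16:29746913-29747112, plus strand: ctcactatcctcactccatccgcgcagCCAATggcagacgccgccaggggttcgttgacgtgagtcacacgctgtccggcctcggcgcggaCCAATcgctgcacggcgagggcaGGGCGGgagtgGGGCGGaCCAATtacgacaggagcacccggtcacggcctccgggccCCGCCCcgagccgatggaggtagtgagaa
Idi1, chr17:66547525-66547724, minus strand: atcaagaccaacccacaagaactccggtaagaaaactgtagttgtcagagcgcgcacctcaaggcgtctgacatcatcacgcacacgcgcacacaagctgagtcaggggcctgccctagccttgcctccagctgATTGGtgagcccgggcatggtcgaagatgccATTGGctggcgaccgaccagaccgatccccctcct
Cyp51, chr4:30991493-30991692, plus strand: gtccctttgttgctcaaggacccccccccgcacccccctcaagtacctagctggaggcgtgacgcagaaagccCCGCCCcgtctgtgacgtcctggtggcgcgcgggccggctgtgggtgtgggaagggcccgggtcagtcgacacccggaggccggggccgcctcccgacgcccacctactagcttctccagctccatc
Msmo1 holds 3 CCAAT and 3 GGGCGG, Idi1 holds 2 CCAAT, and Cyp51 holds 1 GGGCGG. Over the 16 measured enzymes in the table, CCAAT stood in 12 and GGGCGG in 13, beside 29.2% and 28.6% of all 33469 promoters. A form of the sterol regulatory element with 1 base left free stood in 0 of the 16 and in 0.188% of all promoters. These letter matches are descriptions of sequence and not sites, and the absence of a match in this window says nothing of the factor.

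A few genes that store, move or burn lipid rose, while the medians of their lists lay near that of all genes. Plin2, which coats lipid droplets in leukocytes, read 10.29, 10.98 and 11.31 in permanent-MCAO, against 8.83, 9.38 and 9.68 in anesthesia. It rose by 1.56 ± 0.19 (adjusted p = 0.0398), a 2.95-fold difference with no overlap, and its second probe set rose by 1.00. Cpt1a, which admits fatty acids to mitochondria, rose by 1.31 ± 0.33, with 8.21, 8.36 and 8.76 in permanent-MCAO and 5.97, 7.11 and 8.33 in anesthesia, where the highest anesthesia rat reached into the permanent-MCAO range. Angptl4, an inhibitor of lipoprotein lipase, was dim but ran from 2.78 to 4.55 in permanent-MCAO, against 2.14 to 2.23 in anesthesia. Enzymes of triglyceride synthesis, Agpat2 (1.06), Dgat1 (0.76) and Dgat2 (1.33), rose, as did 3 genes of cholesterol traffic: Npc2 (0.56), which lifts cholesterol out of lysosomes, Soat1 (0.62), which esterifies it, and Abca1 (1.27), which exports it. Acly, which supplies cytosolic acetyl-CoA, fell by 0.37. The calls of Abca1 and Acly were lost without 10 and 6 of the 12 rats, left out one at a time, with differences of 1.01 to 1.58 and -0.41 to -0.28. The lists behind these genes were also written after the values were seen, so their counts describe these rats and are no test. In them 3 of 37 oxidation and droplet genes were higher and 0 lower, 3 of 22 fatty acid synthesis genes were higher and 1 lower, and 3 of 15 sterol sensing and uptake genes were higher and 0 lower, beside 2.34% of all genes called higher and 1.30% called lower. Their medians of 0.0054, 0.026 and 0.039 lie close to the 0.0029 of all genes. Against naive rats Dgat1 (0.55), Dgat2 (0.88), Npc2 (0.34), Soat1 (0.39) and Acly (-0.35) were not called. Under tPA Plin2 and Cpt1a were again called higher in permanent-MCAO, by 0.71 and 0.69.

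Of 29 genes of the amino acid and unfolded protein stress response, another list written after the values were seen, 6 were higher and 0 lower, beside 2.34% of all genes called higher. The median was 0.051 and 10 of the 29 differences were negative. Against naive rats 4 were higher and 1 lower, beside 1.74% of all genes higher and 3.20% lower. There Slc7a11 (1.23) and Cars1 (0.32) were not called. Atf4, the transcription factor at the centre of this response, rose by 0.67 ± 0.16, with 10.97, 11.33 and 11.64 in permanent-MCAO and 10.17, 10.68 and 11.10 in anesthesia. Its relatives and targets Atf5 (1.45), Ddit3 (0.79), the cystine carrier Slc7a11 (1.58), Eif4ebp1 (0.91), which holds back translation, and the cysteine tRNA ligase Cars1 (0.42) rose as well. The groups overlapped for 5 of the 6, all but Cars1. Of 4 probe sets of Cars1 1 was called and 2 were positive. Atf4 and Atf5 were also called higher under tPA, by 0.67 and 1.32. The call of Slc7a11 was lost without permanent-MCAO rat 4 (or anesthesia rat 6), the difference lying between 1.28 and 1.77 over all omissions.

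Genes of interleukin 1 signaling were among the cytokine genes that rose after permanent-MCAO. Of 37 cytokines, chemokines and receptors 10 were called higher and 0 lower, with a median of 0.23, beside 2.34% of all genes called higher. The count depended on the control: against naive rats 3 were higher (Il1b at 0.75, Il1rap at 0.96 and Il17ra at 0.44) and 1 lower, with a median of 0.093. Of all genes 1.74% were called higher against naive rats and 3.20% lower. In permanent-MCAO with tPA against tPA without MCAO 0 of the 37 were higher and 1 was lower (median 0.028). Il1b, the interleukin 1 made by activated myeloid cells, read 10.58, 11.16 and 11.75 in permanent-MCAO and 9.71, 10.03 and 10.54 in anesthesia, and rose by 1.10 ± 0.20 (adjusted p = 0.0722, exact p = 0.00216). The accessory receptor chain Il1rap rose by 1.82 ± 0.36, with 5.12, 5.46 and 6.31 in permanent-MCAO and 2.53, 3.83 and 4.61 in anesthesia, and the signaling receptor Il1r1 rose by 1.56, lying between 2.80 and 5.41 in permanent-MCAO and between 2.51 and 2.86 in anesthesia. Il1r2, the decoy receptor carried by neutrophils, read 8.84, 9.87 and 10.60 in permanent-MCAO, against 7.74, 8.05 and 8.86 in anesthesia, and rose by 1.60 ± 0.34 (adjusted p = 0.104). Il1r2 is counted with the neutrophil genes, and neither it (1.04) nor Il1r1 (1.18) was called against naive rats. Of 3 probe sets of Il1r1 1 was called, which was dim, and 2 were positive. The rest of the 10 cytokine genes were Il6r (0.51), Tnf (0.86), Tnfrsf1a (0.73), Ifngr1 (0.61), Il17ra (0.68), the chemokine Ccl6 (0.65) and its receptor Ccr1 (1.13). Tnf was lost without 6 of the 12 rats, left out in turn (0.73 to 1.03), and its second probe set was not called and not positive. Of these 7 only Il17ra was called against naive rats, where Il6r differed by 0.09, Ccl6 by 0.32, Ifngr1 by 0.39, Tnfrsf1a by 0.62, Tnf by 0.64 and Ccr1 by 0.69.

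Some neutrophil and monocyte genes rose. Of 17 neutrophil genes 6 were higher and 0 lower, with a median of 0.77, beside 2.34% of all genes called higher. Of the 17 differences 13 were positive and 4 negative, and they ran from -1.77 to 1.64. The 6 called were Il1r2, the chemokine receptor Cxcr2 (1.24), the growth factor receptor Csf3r (1.21), the antiprotease Slpi (1.24), Alox5ap (1.17) and Padi4 (1.21). Alox5ap presents arachidonic acid for leukotriene synthesis, and the histone-modifying Padi4 was dim. Alox5ap alone of the 6 did not overlap, with 8.15, 8.43 and 9.06 in permanent-MCAO and 7.00, 7.20 and 8.09 in anesthesia. Against naive rats 3 of the 17 were higher (Alox5ap, Slpi and Padi4), beside 1.74% of all genes, with a median of 0.30. There Il1r2 (1.04), Cxcr2 (0.77) and Csf3r (0.51) were not called. The abundant granule and alarmin genes that define the cell were not called: S100a8 differed by 0.35 ± 0.19, S100a9 by 0.41 ± 0.19, Mmp8 by 0.68 ± 0.45 and Mmp9 by 0.92 ± 0.49. The mean over the 17 genes ran from 7.02 to 8.21 in permanent-MCAO and from 6.29 to 7.68 in anesthesia, and averaged 7.36 in naive rats. The rise of the list was not seen in the tPA-treated rats. In permanent-MCAO with tPA against tPA without MCAO 0 of the 17 were called (median -0.056). With naive rats as the control of permanent-MCAO with tPA 0 were called as well (median -0.024). More neutrophils and more RNA per neutrophil cannot be told apart in whole blood, and the same holds for every cell type below. Of 21 monocyte genes 4 were higher and 0 lower: Vcan, the high-affinity IgG receptor Fcgr1a (0.63), the lectin Lgals3 (0.81) and lysozyme Lyz2 (0.27). Against naive rats Vcan kept its call and Fcgr1a (0.29), Lgals3 (0.57) and Lyz2 (0.06) did not. Lyz2 was near the top of the scale (14.40 and 14.13) and its call was lost without 5 of the 12 rats (0.23 to 0.30). The monocyte markers Cd68 and Csf1r differed by 0.19 and 0.20 without being called. In permanent-MCAO with tPA against tPA without MCAO 1 of the 21 monocyte genes was higher and 0 lower (median -0.1), beside 368 of all 14217 genes called higher. Against naive rats permanent-MCAO with tPA had 3 of the 21 higher and 0 lower, beside 424 of all 31042 probe sets called higher.

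Of 32 Toll-like receptor and NF-kB genes 3 were higher and 0 lower (median 0.10), beside 2.34% of all genes called higher. Against naive rats 1 was higher, Tlr2, and 2 were lower (median 0.0087), beside 1.74% of all genes higher and 3.20% lower. There Ly96 differed by 0.24 and Tlr1 by 0.35. Tlr2, the receptor for bacterial lipoproteins, read 8.90, 9.41 and 9.74 in permanent-MCAO and 8.37, 8.60 and 8.79 in anesthesia, and rose by 0.78 ± 0.16 (adjusted p = 0.0883). Ly96, which lets Tlr4 bind lipopolysaccharide, rose by 0.56 ± 0.09 (adjusted p = 0.0509) with no overlap, and Tlr1, the partner of Tlr2, by 0.58, a call lost without 9 of the 12 rats (0.48 to 0.71). Of 30 adhesion and migration genes 6 were higher and 0 lower (median 0.18): the fibronectin receptor chain Itga5 (1.06), the hyaluronan receptor Cd44 (0.47), Sirpa (0.63), the actin linker Actn1 (0.63) and the kinases Fgr (0.52) and Lyn (0.70). Of these Actn1 was lost without 7 of the 12 rats (0.56 to 0.76), and Sirpa alone kept its call against naive rats, where Itga5 differed by 0.81, Actn1 by 0.43, Lyn by 0.41, Fgr by 0.33 and Cd44 by 0.23. Of 33 oxidase and antioxidant genes Ncf4 (0.91), a cytosolic subunit of the phagocyte oxidase, Xdh (0.67) and Sod1 (0.39) were higher and Gclc, the limiting enzyme of glutathione synthesis, fell by 0.76. The calls of Sod1 and Gclc were lost without 4 and 7 of the 12 rats (0.34 to 0.44 and -0.88 to -0.66), and that of Sod1 against naive rats (0.33). In permanent-MCAO with tPA against tPA without MCAO 0 of the 32 Toll-like receptor and NF-kB genes were higher and 2 lower (median -0.13). Of the 30 adhesion and migration genes 3 were higher there and 1 lower (median 0.079). Of all 14217 genes 368 were higher there, and 6.06% were lower.

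**Figure D3:**
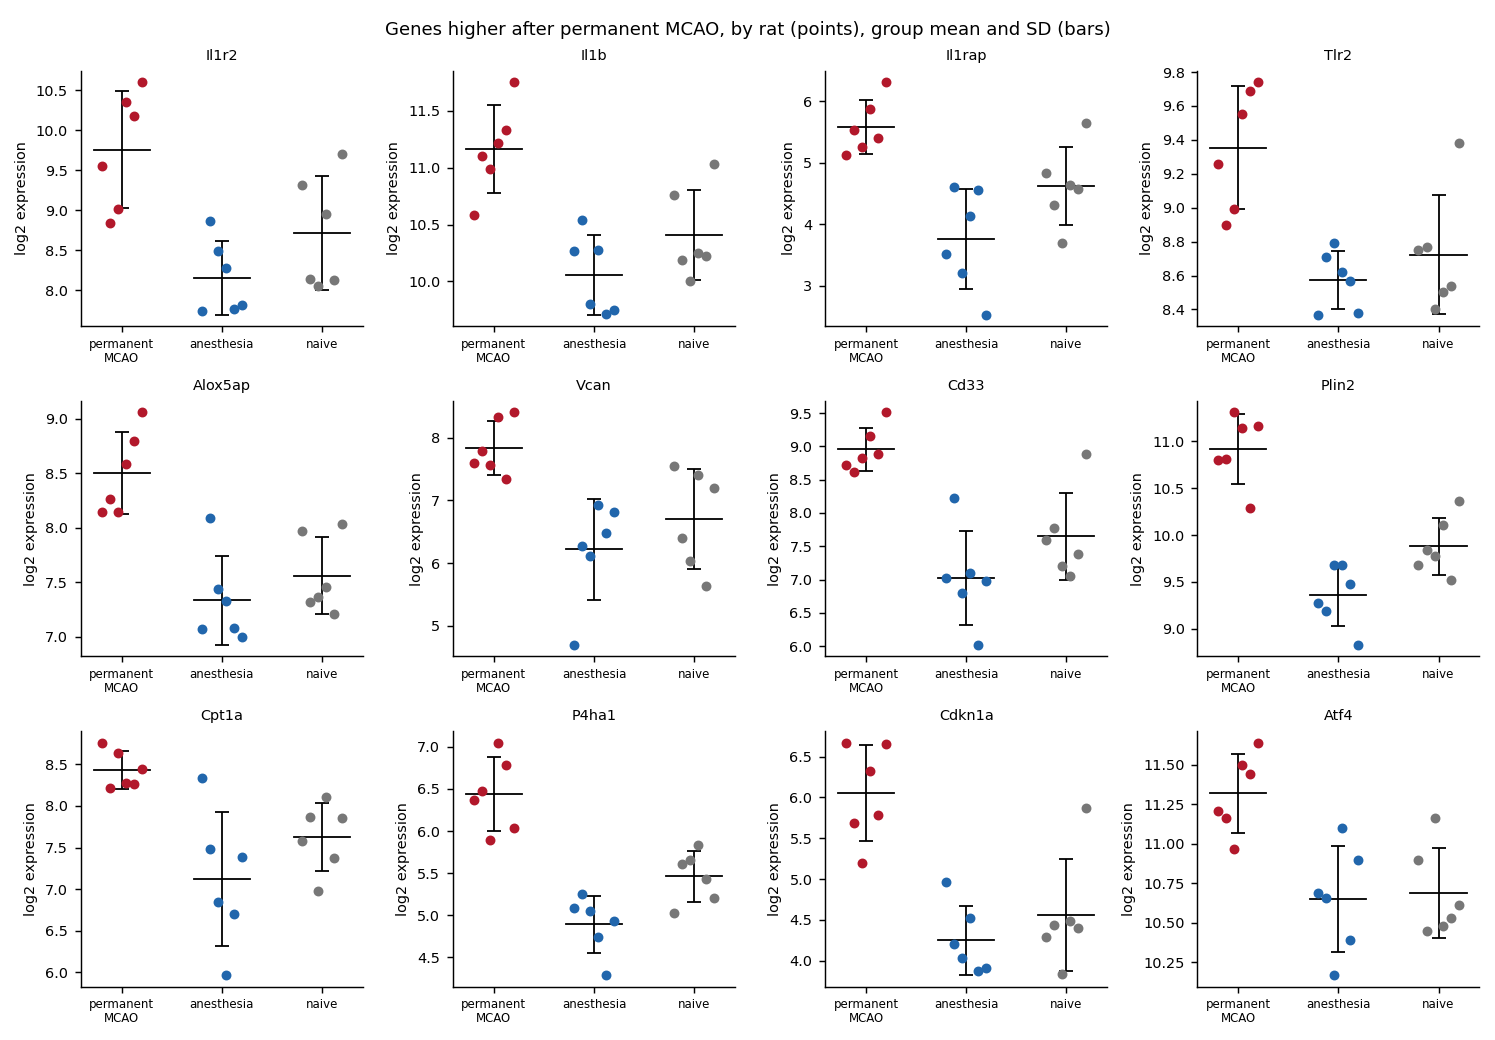
Log2 expression (y axis) of 12 genes called higher, 1 point per rat, in permanent-MCAO, anesthesia and naive rats (6 each), with group means and SD as bars. For Il1b, Il1rap, Tlr2, Alox5ap, Vcan, Cd33, Plin2, P4ha1 and Cdkn1a every permanent-MCAO rat lies above every anesthesia rat, and the naive means lie between the 2 groups.

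Single stress-responsive genes rose. Of 28 glucocorticoid-responsive genes 3 were higher and 0 lower (median 0.12): Cdkn1a, the repressor Bcl6 (0.61 ± 0.13, no overlap) and the transcription factor Cebpd (0.81), whose call was lost without 9 of the 12 rats (0.63 to 0.89). Of 28 immediate early genes Jun (1.24), Klf10 (0.63 ± 0.10, adjusted p = 0.0509) and Zfp36 (0.70), which destabilizes cytokine mRNA, were higher, none overlapping, and 0 were lower. Against naive rats Bcl6 (0.34), Cebpd (0.49), Jun (0.70) and Zfp36 (0.33) were not called. Of 33 hypoxia and glycolysis genes 5 were higher and 0 lower (median 0.16), beside 2.34% of all genes called higher. Against naive rats 2 of the 33 were higher and 1 lower (median 0.047), beside 1.74% of all genes higher and 3.20% lower. P4ha1, a collagen prolyl hydroxylase induced by low oxygen, was the clearest, with 5.89, 6.43 and 7.05 in permanent-MCAO and 4.29, 4.99 and 5.25 in anesthesia (1.55 ± 0.22, adjusted p = 0.0398). The other 4, the glucose carrier Slc2a1 (0.43), the glycolytic enzymes Tpi1 (0.60) and Pgam1 (0.30), and Ndrg1 (0.81), lost their calls without 10, 10, 6 and 7 of the 12 rats, with all differences between 0.26 and 0.95, and Slc2a1 (0.20), Pgam1 (0.08) and Ndrg1 (0.24) were not called against naive rats. Of 27 heat shock genes Hspa5 (0.38), the chaperone of the endoplasmic reticulum, and Dnajb1 (0.59) were higher, the second lost without 11 of the 12 rats (0.48 to 0.74). Of 19 clock genes Nfil3 (0.89) was higher. Thbd, the thrombin receptor that starts protein C activation, rose by 1.01 ± 0.22, while Procr, the receptor of protein C, fell by 0.75 ± 0.20, the 2 called among 36 coagulation genes. Cfd, a protease of the alternative complement pathway, rose by 1.40 ± 0.33, the 1 called of 18 complement genes, and Adam15 (0.74) was the 1 called of 27 matrix protease genes, lost without 8 of the 12 rats (0.59 to 0.84). Not called against naive rats were Hspa5 (0.25), Nfil3 (0.67), Procr (-0.11), Cfd (0.97) and Adam15 (0.36). Against anesthesia the shares called were 10.7% in the glucocorticoid and immediate early lists, 7.41% in heat shock and 5.26% in clock. They were 5.56% in coagulation and complement and 3.7% in matrix proteases, beside 3.64% of all genes.

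Lymphocyte, platelet and red cell genes stayed largely below the thresholds. Of 28 gene lists 19 held at least 1 called gene and 9 held none: T cell (26 genes, median -0.12), B cell (16, -0.23), NK and cytotoxic cell (23, 0.25), platelet (23, 0.30), proliferation (39, -0.087), apoptosis (28, 0.0066), ribosomal protein (41, 0.032), endothelial cell (18, 0.025) and neural cell (25, 0.013). By control group these medians were not alike. Against naive rats 11 of 26 T cell genes were lower (median -0.38), beside 3.20% of all genes, and 5 of 23 platelet and 4 of 23 NK and cytotoxic genes were higher (medians 0.77 and 0.30), beside 1.74%. The T cell mean was 8.49 ± 0.18 in permanent-MCAO, 8.60 ± 0.20 in anesthesia and 8.85 ± 0.15 in naive rats (SD, n = 6 each). Camk4, a kinase of T cells, differed by -0.34 ± 0.28, Gzmb, a cytotoxic granule protease, by 0.54 ± 0.33, and Timp3, an inhibitor of matrix proteases, by 1.17 ± 0.44, none of them called. Single genes fell in other lists: Ndufb6 (-0.31) and Cox6c (-0.56) of 60 oxidative phosphorylation genes, 48 of which were negative (median -0.11), Epb41 (-0.52) of 34 erythroid genes, Rfxank (-0.34) of 16 MHC class II genes and Rsad2 (-0.35) of 32 interferon genes. The shares called in these lists, in that order, were 3.33%, 2.94%, 6.25% and 3.12%, beside 3.64% of all genes. The calls of Ndufb6, Epb41 and Rfxank were lost without 7, 10 and 8 of the 12 rats, at -0.35 to -0.24, -0.66 to -0.45 and -0.39 to -0.26. Siglec5 (1.63), called higher in the list of basophil, mast cell and eosinophil genes (5.26% called), was lost without 9 (1.38 to 1.89). Of 2 probe sets of Epb41 1 was called, and the other was positive. Of these 6 genes Rsad2 alone was called against naive rats.

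**Figure D4:**
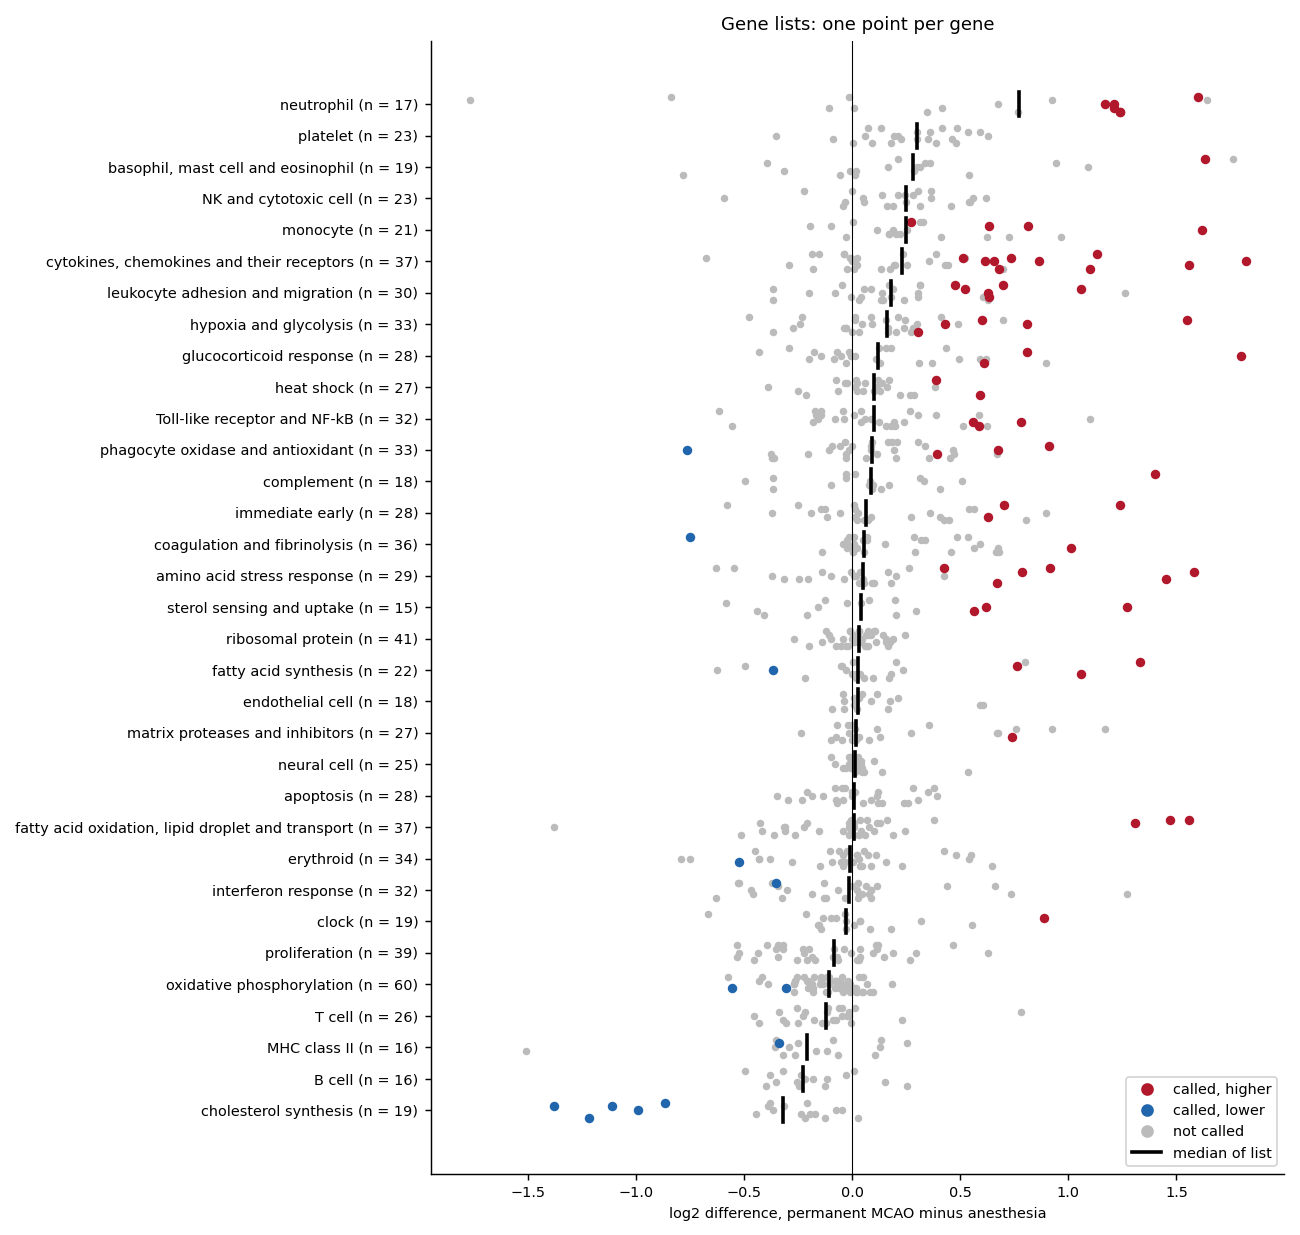
Log2 difference of permanent-MCAO minus anesthesia (x axis) for the genes of 33 lists (rows), 1 point per gene, coloured where called, with each list's median as a black bar. The neutrophil list has the highest median (0.77) and the cholesterol synthesis list the lowest (-0.32), with 5 called genes left of zero.

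The genes with the largest called differences, among those with a mean of at least log2 4 over the 12 arrays, were mixed in function. Above Fetub on the higher side stood LOC102546992 (2.51), Vcan, Pdzph1 (2.22) and LOC102555751 (2.00), and below it Gpnmb (1.90), a membrane glycoprotein of macrophages, the lymphocyte receptor Cd244l1 (1.89), Il22ra2 (1.78), which encodes a soluble trap for interleukin 22, and Fgf12 (1.78), lost without 7 of the 12 rats (up to 2.11). Of 2 probe sets of Cd244l1 1 was called and 1 was positive. Of 3 of Fgf12 1 was called and 2 were positive. On the lower side Lpal2 fell furthest, by 2.57 ± 0.46, with 2.93, 3.61 and 4.89 in permanent-MCAO and 5.09, 6.22 and 7.42 in anesthesia (adjusted p = 0.0651). Under tPA the same gene differed by 1.59, the opposite sign, without being called. Cxcl16, a membrane-bound chemokine and scavenger receptor, read 4.73, 5.81 and 6.43 in permanent-MCAO, against 7.22, 7.60 and 8.57 in anesthesia (-1.95 ± 0.32, adjusted p = 0.0509), with no overlap. Fcgbp (-1.77), Ppp1r13b (-1.65), Tfdp2 (-1.57), a partner of E2F factors, Usf3 (-1.57), the pyrophosphate carrier Ankh (-1.47), Pxmp4 (-1.43), Tmem144 (-1.42), the centriole kinase Plk4 (-1.35) and Ikzf5 (-1.28) followed, the last lost without 10 of the 12 rats (-1.55 to -1.09). Micalcl (-1.68) was called lower but has a mean of 3.86, below that level, and is named after its value was seen. Of the genes above LOC102546992 (1.35), Cd244l1 (0.88), Ppp1r13b, Tfdp2, Usf3, Ankh, Pxmp4, Tmem144, Fcgbp and Ikzf5 were not called against naive rats.

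Whether permanence of the occlusion mattered was asked by setting permanent-MCAO against reperfused-MCAO. There 220 probe sets were called (0.709%), 65 higher (0.209%) and 155 lower (0.499%). A p of 0.01 alone, without the fold threshold, would pass about 310 without any difference, so these 2 counts are not alike. The unadjusted limma p was under 0.05 for 1968 probe sets. Without permanent-MCAO rat 3 the count was 407. The share of higher calls, 29.5%, was 46.5% after quantile scaling and 44.8% after median centring of the arrays. After adjustment 2 passed (0.00644%). Gstt3, a glutathione transferase, read 6.95, 7.37 and 8.83 in permanent-MCAO (lowest, median and highest) and 2.48, 2.62 and 2.85 in reperfused-MCAO, a difference of 4.93 ± 0.26 (adjusted p = 3.53e-05). In the other groups most rats were also either high or low. Above log2 4 lay 6 of 6 permanent-MCAO rats, 0 of 6 reperfused-MCAO rats, 5 of 6 anesthesia rats, 3 of 6 rats with permanent-MCAO and tPA, 2 of 6 with tPA alone and 4 of 6 naive rats, and none of the 36 lay between 3.72 and 5.26. The second was Mapk7, dim in both groups, at 2.21 to 2.33 in permanent-MCAO and 2.67 to 2.90 in reperfused-MCAO. Without adjustment the cell division genes Birc5 (1.13 ± 0.31) and Pttg1 (1.11 ± 0.29) were higher in permanent-MCAO than in reperfused-MCAO, as were Stk11 (1.54), Gtpbp1 (1.33) and Sfrp4 (means of 5.62 and 4.42), while Tg (means of 3.62 and 4.83), Bcr (-1.13), Sync (-1.13), Tnfrsf21 (-1.07), Zfyve21 (-1.01) and Arhgap26 (-0.93) were lower. The neutrophil list had medians of 0.77 for permanent-MCAO and 1.30 for reperfused-MCAO against the same anesthesia rats, and the cholesterol synthesis list medians of -0.32 and -0.29.

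**Figure D5:**
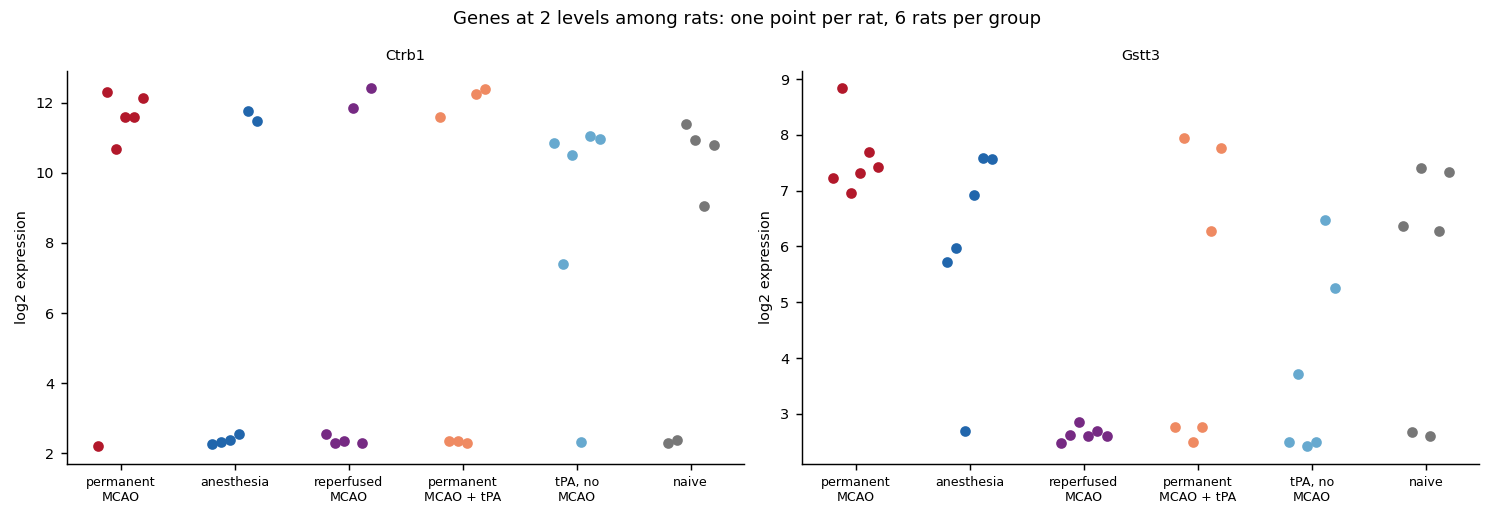
Log2 expression (y axis) of Ctrb1 and Gstt3, 1 point per rat, in 6 groups of 6 rats. Most rats sit at a high or a low level of each gene, and for Gstt3 all permanent-MCAO rats are high and all reperfused-MCAO rats low.

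The same occlusion was examined in rats that share no animal with the 12 above. Permanent-MCAO with tPA against tPA without MCAO gave 2078 called probe sets (6.69%), 629 higher (2.03%) and 1449 lower (4.67%), and 9 after adjustment (0.0290%). With the hybridization control level as a covariate 448 were called, with naive rats as the control 663, and without tPA rat 3 1342. Of the 550 probe sets higher without tPA, 54.7% were positive under tPA, beside 57.7% of all probe sets, and of the 312 lower ones 47.8% were negative, beside 42.3%. Both shares lay near those of all probe sets. Of the 550, 27 were also called higher under tPA and 8 were called lower. Of the 312, 32 were also called lower under tPA and 3 were called higher. These counts stand beside 2.03% of all probe sets called higher and 4.67% called lower. Of the 45 probe sets past adjustment 25 of 36 higher ones and 8 of 9 lower ones kept their sign. With naive rats as the control of permanent-MCAO with tPA, 82.9% of the 550 were positive, beside 54.8% of all, and 81.4% of the 312 negative, beside 45.2%. Single genes called both without and under tPA in the same direction were the 5 cholesterol enzymes, Plin2, Cpt1a, Atf4, Atf5, Gpnmb (1.00 under tPA), Jun (0.96) and Rfxank (-0.39) among the 99 named probe sets.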

How the data were processed

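Whole-blood RNA of 42 rats was hybridized to Affymetrix Rat Genome 230 2.0 arrays, 1 array per rat. The deposited values are log2 expression made by the authors with GC-RMA in Partek, per the labels; tool versions are not given in the sources used here. GC-RMA scales arrays together and compresses dim probe sets, so fold changes of dim genes are uncertain, and the number of arrays limits the precision.

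Groups came from the labels. After 57 control probe sets were left out, 31042 were tested between the 2 groups only, in R 4.3.3 with limma 3.58.1, and tested on simulated data first. Symbols came from the platform annotation: 20826 probe sets carried 1 symbol, 436 several and 9780 none. A list gene was represented by its brightest probe set with 1 symbol.

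Members and lists were chosen with earlier results of these data known. Named were the 12 highest and 12 lowest called genes with 1 symbol and a mean of at least log2 4, the 2 genes of smallest p in each of 28 lists, every called list gene, the 6 highest and 6 lowest called against reperfused-MCAO, the first 3 genes of each marker list, and 6 genes the study names. Another 5 lists (cholesterol synthesis, sterol sensing, lipid oxidation and droplets, fatty acid synthesis, amino acid stress) were added after the values were seen. Alternatives covered variance, scaling, dim probe sets, thresholds, covariate, replicate block, control group and each rat left out.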

Additional observations from a re-analysis of the deposited data

Results flagged for a closer look

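Single rats stood apart from the other 5 of their group for 10 named genes, among 198 groups examined, and chance alone marks about 1 group in 20. In permanent-MCAO, rat 3 was highest for Msmo1 (6.30, others 5.36 to 5.54) and Plk4 (4.53, others 3.81 to 4.06). Rat 6 was highest for Ndrg1 (9.06, others 7.98 to 8.33), Cebpd (6.37, others 5.26 to 5.54) and Zfp36 (9.78, others at most 9.20). Rat 1 was lowest for Siglec5 (9.13, others 10.22 to 10.82).

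In anesthesia, rat 2 was highest for Ifngr1 (9.95, others 9.09 to 9.40) and Il6r (8.12, others 7.65 to 7.82). Rat 1 was lowest for Vcan (4.70, others 6.12 to 6.93), and rat 3 was lowest for Dnajb1 (7.72, others 8.29 to 8.44). These Vcan values are of a brighter probe set than the one that passed adjustment above.

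Between permanent-MCAO and reperfused-MCAO, limma's test of the difference itself passed adjustment for Gstt3 (4.93, adjusted p = 3.53e-05) and Mapk7 (-0.528, adjusted p = 0.000456), the second below log2 4 in every rat of both groups.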

How the results depend on the processing

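Of 99 named called probe sets, 77 were called whichever rat was left out and 35 under every alternative, none changed sign, and 44 were called against naive rats. The 862 called probe sets became 556 at a fold of 1.5 and 2100 at a p of 0.05, and lay between 634 (without permanent-MCAO rat 4) and 1010 (without anesthesia rat 1) with 1 rat left out. The 45 past adjustment became 129 with array weights, 69 with an intensity trend, 0 with the methods' test, 93 with all 42 arrays, 109 with median centring, 183 without dim probe sets, 2 against naive rats and 167 against naive and anesthesia rats, with a range of 0 to 119 with 1 rat left out. The share of higher calls, 63.8%, was 50.1% with the control level as covariate and 36.4% against naive rats. The replicate numbers do not pair the rats (correlations of -0.255 to 0.187). With the replicate block 679 probe sets were called, 504 of them also called without it, and 0 passed adjustment.

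Against reperfused-MCAO the 220 became 146 without dim probe sets, 76 at a fold of 1.5 and 920 at a p of 0.05 (148 to 407 with 1 rat left out), and the 2 past adjustment became 4 with all 42 arrays, 1 without dim probe sets and 1 with the replicate block (2 to 4). Under tPA the 2078 became 663 against naive rats and 448 with the covariate (1342 to 2442), and the 9 past adjustment became 0 in both and 0 with the replicate block (0 to 94). The causes were not tested. Signal over background limits the probe sets below log2 4.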

Other observations

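The largest difference of all, 4.63 for the pancreatic enzyme Ctrb1, was not called. In every group most rats were either high or low for it. Above log2 8 lay 5 of 6 permanent-MCAO rats, 2 of 6 reperfused-MCAO rats and 2 of 6 anesthesia rats, 3 of 6 rats with permanent-MCAO and tPA and 4 of 6 with tPA without MCAO, and 4 of 6 naive rats. In permanent-MCAO the high rats ran from 10.67 to 12.31 and the low rat read 2.21, and in anesthesia the high rats read 11.76 and 11.47 and the others 2.27 to 2.54.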
